A study of Mus musculus with 4 samples.

Results

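The adhesion and homing receptors described here are the products of 10 genes, the integrin subunits *Itga4*, *Itgal*, *Itgb1*, *Itgb2* and *Itgb7*, the hyaluronan receptor *Cd44*, the selectin ligand *Selplg*, the sialomucin *Spn*, and the chemokine receptors *Cxcr4* and *Ccr9*. They are 10 of the 31829 gene names on the array, which holds 19 probes for them out of 39429 probes in all. The genes were selected by name with the log2 fold changes of these same 4 arrays already known, so all values of these probes are given as a description, without a test. The cells were fetal liver haematopoietic progenitors (FL HPCs) depleted of lineage-positive cells (Lin-) from Ebf1-/- mouse embryos, which lack the transcription factor EBF1, and both groups share this genotype. They were infected with a retrovirus carrying only a GFP cassette (EMPTY, MDH1-PGK-GFP) or the same vector with *Mir195*, and received SCF, IL-7 and Flt3 ligand at 10 ng/mL each. The methods give culture on OP9 stroma cells as the general condition, and wild-type cells are not among the arrays. Each virus has 2 arrays, called replicates in the labels, and nothing states that they came from separate infections or embryos, so the spread may be technical.

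Leukocytes leave the blood and settle in tissue in steps. Selectins catch glycans on mucins such as PSGL-1 (the product of *Selplg*), chemokine receptors signal inwards, and integrins then switch to a form that holds the endothelium or the matrix. Lymphoid progenitors use the same molecules to stay in the marrow or fetal liver, where CXCR4 responds to CXCL12 and the integrin of the ITGA4 and ITGB1 chains holds VCAM1 on stroma, while CCR9 guides progenitors to the CCL25 of the thymus and gut. CD44 is a hyaluronan receptor whose transcript is alternatively spliced, and CD43 (*Spn*) is a large sialomucin of the leukocyte surface.

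Most of the receptors differed little between the viruses. Of the 19 probes, 17 had a log2 fold change below 1 in size, and the other two, a probe of *Cd44* and a probe of *Ccr9*, were higher with *Mir195*, by 1.20 and 1.0. Other probes of both genes measured far less, down to 0.04 for *Cd44* and 0.05 for *Ccr9*. All 19 probes were well above background on all 4 arrays, and 18 of them matched their gene in RefSeq by accession. The exception is the *Ccr9* probe with the fold change of 1.0.

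Since the account of both genes turns on which probe is read, their sequences are shown first. The array describes the 4 *Cd44* probes by the same transcript, NM_009851 (variant 1), and neither this accession nor the description places them in an exon. The positions of the probes along the transcript were not analysed here. Of these probes, 3 are printed whole, 5′ to 3′, with capitals for the first stop triplet in the frame that starts at base 1.
A_55_P2166488: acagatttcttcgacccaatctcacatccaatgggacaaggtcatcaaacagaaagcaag
A_55_P2166486: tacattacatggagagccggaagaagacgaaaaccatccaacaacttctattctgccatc
A_55_P2166501: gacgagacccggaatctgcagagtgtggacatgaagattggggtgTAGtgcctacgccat
The first and the second of these have no stop triplet in any of the 3 forward frames, and A_55_P2166501 has 2 stop triplets and 1 frame without one. Such counts do not show whether a probe lies in the coding sequence. The *Ccr9* probes are compared by their last 30 bases, with all stop triplets in capitals.
A_52_P30312: catctctttgccagTGAcatggcctttcct
A_55_P2308239: ctTAAccacTAAgctatttctcTAGttcca
The array describes A_52_P30312 by the *Ccr9* transcript NM_009913 and A_55_P2308239 by AK162996, a cDNA clone of neonatal thymus with an unclassifiable product. Over its 60 bases, A_55_P2308239 has 5 stop triplets and 0 frames without one, against 2 such frames in A_52_P30312.

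The virus delivers the microRNA of the miR-15 and miR-16 seed family, whose seed (bases 2 to 8) pairs with sites in target messages. The mouse form, from the RefSeq table of GRCm38.p6 (chr11:70235062-70235082, plus strand), is printed with the seed in capitals.
mmu-miR-195a-5p: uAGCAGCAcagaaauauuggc
Of the 10 genes, *Itgb1* alone is on the list of predicted mouse targets that accompanies the study. The 7 bases TGCTGCT, which pair with this seed, occurred in 0 of the 19 probes and in 317 probes of the array (0.804%), and the untranslated regions themselves were not searched.

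Levels are log2 values of the processed signal, from which each array's 75th percentile was subtracted, and fold changes are given as the mean of the *Mir195* arrays minus that of the EMPTY arrays, with the standard error from the fit of limma over 23731 probes. Such probes exceeded the background clearly on each array of 1 or both viruses and had no outlier spot. No level is compared between probes, since probes differ in how strongly they bind. The signal at the 75th percentile was 902 to 1127, 23658 to 24671 probes per array were well above background, and no spot was saturated. Between replicates, the probes differed by a median of 0.147 (EMPTY) and 0.194 (*Mir195*), and the closest arrays of different viruses, EMPTY replicate 2 and *Mir195* replicate 1, by 0.0951. The 4 arrays share 1 slide, with EMPTY at its start and *Mir195* at its end, and position on it cannot be told apart from virus. Of 59 tested probes with a log2 fold change under -2.5, none of them a receptor probe, 57 were lowest on *Mir195* replicate 2. Of 12 progenitor markers, 11 were well above background on all 4 arrays, including *Kit*, *Flt3*, *Il7r* and *Cd34*, and *Gata2* on none. Such detection was not particular to progenitors. It held for 13 of 13 NK and innate lymphoid, 11 of 13 T lineage, 10 of 13 early B and 11 of 14 myeloid markers. For mast and basophil markers it was 3 of 8, and for erythroid and megakaryocyte markers 5 of 10. The methods of the arrays do not state whether cells were sorted or stroma was removed before RNA was isolated. In such RNA, fewer cells of a type and less RNA per cell cannot be told apart.

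Limma called 0 of the 23731 probes (0%) at an adjusted p under 0.05, among them 0 of the 19. The lowest adjusted p over all probes was 0.101, and 1979 probes had an unadjusted p under 0.05. With 2 arrays against 2, the smallest p of an exact two-sided permutation test for a single probe is 0.333. The arrays of the viruses did not overlap for 6 of the 19 probes, against 37.8% of all tested probes. Of these, 3 were higher (23.4% of all) and 3 lower (14.4% of all) with *Mir195*. In the mean, 9 of the 19 were higher, against 53% of all tested probes. After scaling by the median of each array instead, 5 were higher and 14 lower. A log2 fold change of at least 1 in size was reached by 2 of the 19 (1.84% of all), both higher (1.01% of all in that direction). The median log2 fold change was -0.00042 over the 19 and 0.01 over all tested probes, and the median size was 0.106 and 0.125. Since the same contrast stood behind the selection of the genes, nothing is read from these shares.

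**Figure D1:**
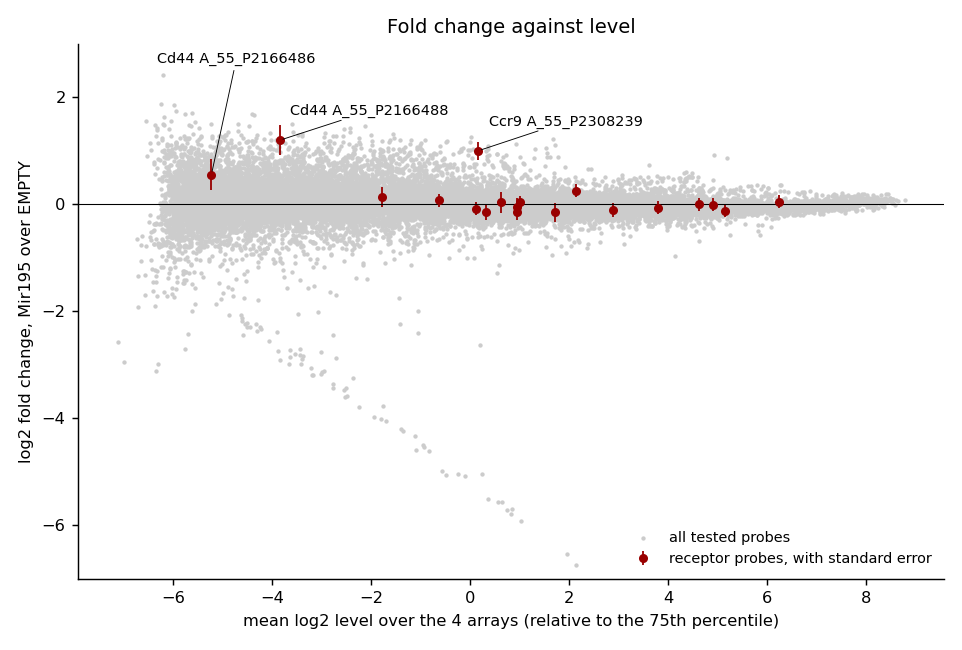
Log2 fold change (vertical axis, *Mir195* over EMPTY) against the mean log2 level of the probe over the 4 arrays (horizontal axis). Grey points are the 23731 tested probes, red points with standard errors are the 19 receptor probes, and those above 0.5 are named: 2 of *Cd44* at low levels and 1 of *Ccr9* in the middle of the range.

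The integrin subunits were measured by 8 probes, all with fold changes between -0.15 and 0.14. ITGA4 pairs with ITGB1 to bind VCAM1 and fibronectin, and with ITGB7 to bind MADCAM1 of the gut endothelium. The *Itga4* probe A_55_P2040026 measured 4.91 and 4.91 with EMPTY and 4.98 and 4.83 with *Mir195*. Its EMPTY arrays were nearly equal and lay between the *Mir195* arrays, and the log2 fold change was -0.01 (standard error 0.12). The other *Itga4* probe, A_66_P140103, measured -0.62 and -0.72 with EMPTY and -0.54 and -0.63 with *Mir195*. These arrays overlapped too, and the difference of the means was 0.08 (0.12).

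*Itgb1* encodes the common beta chain of the receptors for fibronectin, collagen, laminin and VCAM1. Its probe A_66_P113059 measured 0.80 and 0.42 with EMPTY and 0.49 and 0.80 with *Mir195*. EMPTY replicate 1 and *Mir195* replicate 2 were high and nearly equal, the others low, and the log2 fold change was 0.04 (standard error 0.20, 95% interval -0.48 to 0.55). The probe A_52_P351816 measured -1.62 and -2.09 with EMPTY and -1.73 and -1.69 with *Mir195*. Both *Mir195* arrays lay between the EMPTY arrays, and the log2 fold change of 0.14 (standard error 0.19, 95% interval -0.35 to 0.64) was smaller than the EMPTY standard deviation of 0.33. For this predicted target, both intervals include lower as well as higher levels with *Mir195*.

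*Itgal* and *Itgb2* encode the chains of LFA-1, the leukocyte integrin for ICAM1. The *Itgal* probe A_51_P466378 measured 1.13 and 0.92 with EMPTY and 0.78 and 0.98 with *Mir195*, and A_55_P2184601 measured 1.1 and 0.83 with EMPTY and 0.85 and 1.0 with *Mir195*. In both, EMPTY replicate 1 was highest, and the log2 fold changes were -0.14 and -0.04 (standard error 0.15 each). *Itgb2* measured 2.0 and 1.57 with EMPTY and 1.61 and 1.68 with *Mir195*. Its EMPTY replicate 1 stood above the other 3 arrays, and the log2 fold change was -0.15 (0.18). In *Itgb1*, *Itgb2* and *Itgal*, EMPTY replicate 1 exceeded replicate 2 by 0.21 to 0.47, more than any of these probes differed between the viruses. The summed level of 13 NK and innate lymphoid markers, each taken relative to the 75th percentile on the linear scale, was likewise highest there, at 52.3, against 45.3 on EMPTY replicate 2 and 38.3 and 41.8 with *Mir195*, and 12 of the 13 were lower in the mean with *Mir195*. The part of these cells in the integrin values was not tested.

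The fifth integrin gene, *Itgb7*, measured 5.26 and 5.18 with EMPTY and 5.07 and 5.13 with *Mir195*. Here the arrays did not overlap, but the nearest of them were only 0.049 apart, and the log2 fold change was -0.12 (standard error 0.12, 95% interval -0.42 to 0.19). It kept its direction in all 13 alternatives, between -0.22 and -0.07, though the filters and replicate blocks among them left every receptor fold change as it was.

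**Figure D2:**
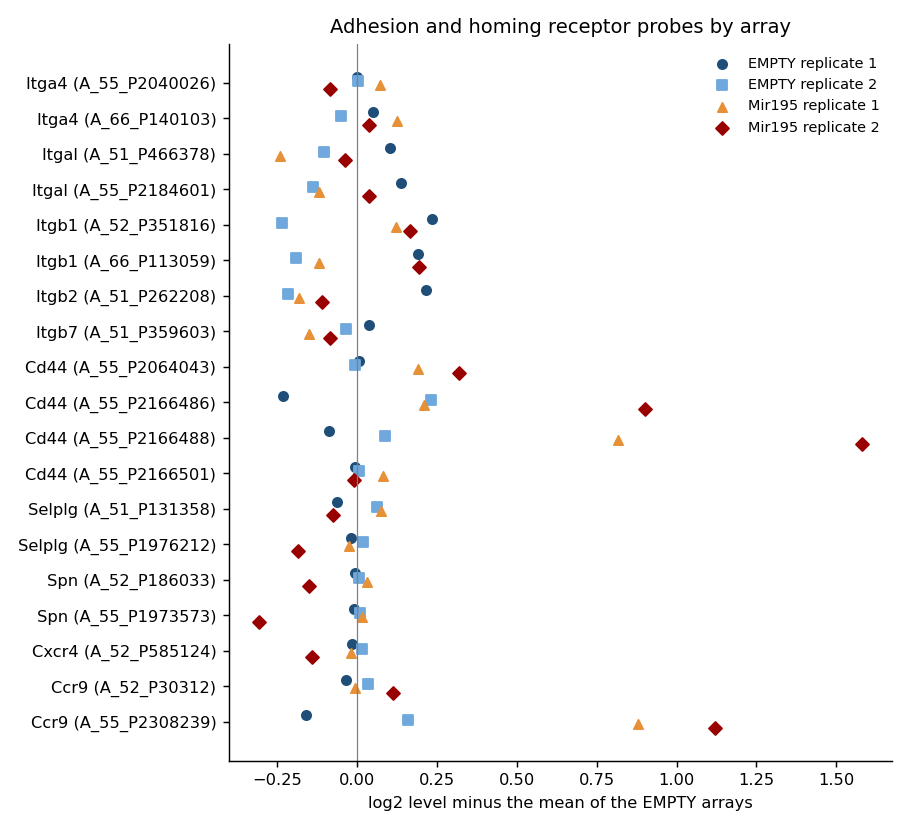
Log2 level of each of the 19 probes on each array, minus the mean of the EMPTY arrays for that probe (horizontal axis). Most points lie within 0.5 of 0. The *Mir195* arrays stand to the right for the *Cd44* probe A_55_P2166488 and the *Ccr9* probe A_55_P2308239, and EMPTY replicate 1 stands to the right for *Itgb2* and *Itgal*.

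*Selplg* and *Spn* encode mucins that are anchored in the membrane. The *Selplg* probe A_51_P131358 measured 4.56 and 4.68 with EMPTY and 4.70 and 4.55 with *Mir195*, and the probe A_55_P1976212 measured 2.92 and 2.96 with EMPTY and 2.91 and 2.75 with *Mir195*. The former overlapped, and its log2 fold change was -0.00042 (standard error 0.13). The latter was lower with *Mir195* by 0.11 (0.12), and its nearest arrays were 0.0058 apart. *Spn* measured 3.82 and 3.83 with EMPTY and 3.86 and 3.67 with *Mir195* on A_52_P186033, and 0.38, 0.40, 0.40 and 0.08 in the same order on A_55_P1973573. On both *Spn* probes *Mir195* replicate 2 was the low one and the other 3 arrays agreed within 0.04. The log2 fold changes were -0.06 (0.13) and -0.15 (0.15), and without that array they were 0.03 and 0.01.

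*Cxcr4*, the receptor for the stromal chemokine CXCL12, has 1 probe, which measured 0.14 and 0.17 with EMPTY and 0.14 and 0.01 with *Mir195*. *Mir195* replicate 2 alone stood apart, and the gap between the viruses was 0.0014. The log2 fold change was -0.08 (standard error 0.12, 95% interval -0.40 to 0.23), and without that array it was -0.02.

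*Ccr9* encodes the receptor for CCL25. The probe of its transcript, A_52_P30312, measured 6.19 and 6.26 with EMPTY and 6.22 and 6.34 with *Mir195*. The arrays overlapped, and the log2 fold change was 0.05 (standard error 0.12, 95% interval -0.27 to 0.37). The probe of the thymus clone, A_55_P2308239, measured -0.50 and -0.18 with EMPTY and 0.54 and 0.78 with *Mir195*. Before the scaling, its processed signals were 796, 906, 1308 and 1581 in this order. Both *Mir195* arrays lay at least 0.72 above both EMPTY arrays, a gap wider than the distance within either pair. The log2 fold change was 1.0 (standard error 0.17), that is 2.0-fold, and 237 of the tested probes had a higher one. It stayed between 0.84 and 1.16 in all 13 alternatives, of which the filters and replicate blocks could not move it.

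The distance between the fold changes of the *Ccr9* probes was 0.95. Among the 3307 genes with 2 tested probes the median of this distance was 0.103, and 98.5% of them had a smaller one. For *Itga4*, *Itgal*, *Itgb1*, *Selplg* and *Spn*, which also have 2 probes, it was 0.086 to 0.106. The probes that the array names *Ccr9* gave different values on the same arrays. The value of 1.0 belongs to the sequence of the unclassified clone printed above. As the genes were selected with these fold changes known, nothing is read from the ranks of *Ccr9* and *Cd44* among other genes and probes.

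*Cd44* was the other gene whose probes differed. A_55_P2166501 measured 0.99 and 1.0 with EMPTY and 1.08 and 0.98 with *Mir195*. These arrays overlapped, and the log2 fold change was 0.04 (standard error 0.12, 95% interval -0.27 to 0.34). The probe A_55_P2064043 measured 2.03 and 2.02 with EMPTY and 2.21 and 2.34 with *Mir195*. Both *Mir195* arrays were higher by at least 0.18, and the log2 fold change was 0.25 (0.12), or 1.19-fold. The fold changes of these probes lay 0.22 apart, and this difference was not tested.

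The dim *Cd44* probes, which have no stop triplet in any frame, showed larger and less even differences. A_55_P2166488 measured -4.54 and -4.36 with EMPTY and -3.64 and -2.87 with *Mir195*, from processed signals of 48.5, 50, 72.6 and 126. The *Mir195* arrays stood at least 0.73 above the EMPTY arrays, but also differed from each other by 0.76. The log2 fold change was 1.20 (standard error 0.28), or 2.30-fold, with 81 tested probes above it, and it was 0.77 with another background correction (normexp). A_55_P2166486 measured -5.74 and -5.27 with EMPTY and -5.30 and -4.61 with *Mir195*. *Mir195* replicate 2 alone was high, EMPTY replicate 2 and *Mir195* replicate 1 were nearly equal, and the log2 fold change was 0.56 (standard error 0.29, 95% interval -0.21 to 1.32). Among the 5802 tested probes with a mean level between -5.5 and -3, which include both of these, 1.76% had a log2 fold change of at least 1.

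**Figure D3:**
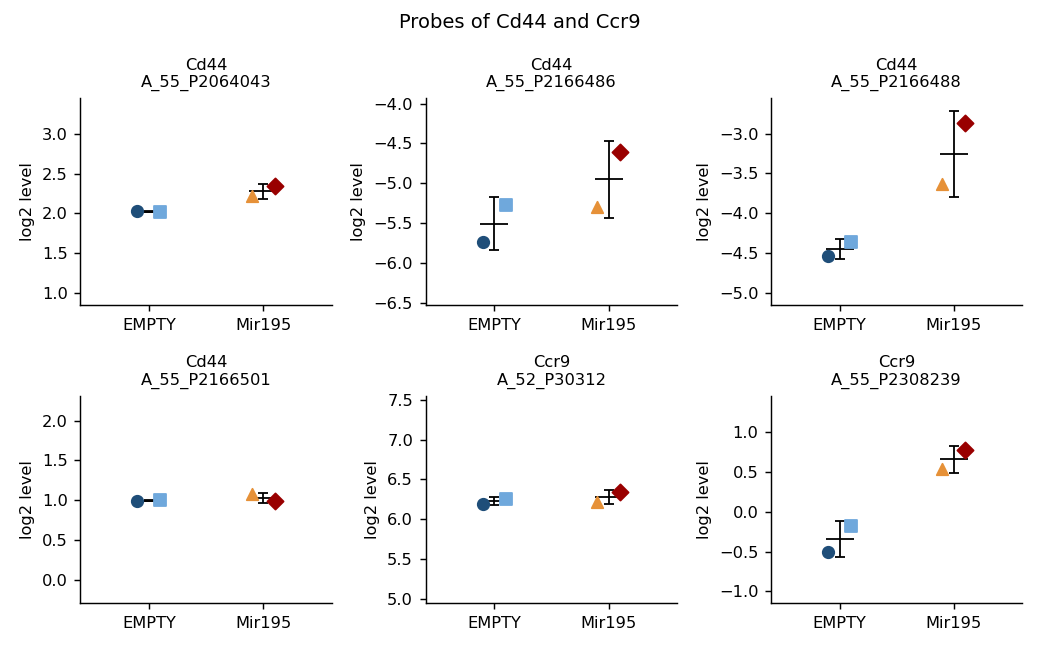
Log2 level (vertical axis, relative to the 75th percentile) for the 4 *Cd44* and the 2 *Ccr9* probes, 1 panel per probe with the same span on each vertical axis. Circles and squares are EMPTY replicates 1 and 2, triangles and diamonds *Mir195* replicates 1 and 2, and bars give the mean and standard deviation of 2 arrays. The viruses are apart in 3 panels, with the widest gaps for A_55_P2166488 and A_55_P2308239.

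The fold changes of the 4 *Cd44* probes spanned 1.16, against a median of 0.281 over the 74 genes with 4 tested probes. The mean was higher with *Mir195* for all 4, although A_55_P2166501 turned to -0.06 when the arrays were scaled by their medians and to -0.01 without *Mir195* replicate 1. OP9 stroma cells also carry *Cd44*, and the array on which both dim probes were highest was the one with the highest summed level of stroma markers. Of 25 such markers, 18 were well above background on all 4 arrays and 6 on none (*Pdgfra*, *Lum*, *Dcn*, *Postn*, *Twist1* and *Prrx1*), and 13 were higher and 5 lower with *Mir195*. Without *Thy1*, which T cells share and which made up much of the sum, the summed level of the list was 14.5 and 15.5 with EMPTY and 13.7 and 24.7 with *Mir195*. With *Thy1* it was 26.3, 26.8, 22.2 and 31.6. *Sparc* made up the largest part of the sum without *Thy1*, at 5.70 and 6.21 with EMPTY and 5.52 and 10.6 with *Mir195*. *Fabp4*, *Adipoq*, *Cebpa* and *Thy1* of the same list were lowest on *Mir195* replicate 2. *Mir195* replicate 1, where A_55_P2166488 was already above both EMPTY arrays, had the lowest sum. The part of stroma RNA in the *Cd44* values was not tested.

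One array decided how limma called the genes with the largest values. Without *Mir195* replicate 1 it called 904 probes (3.81%), among them 2 of the 19, A_55_P2166488 of *Cd44* with a log2 fold change of 1.58 and A_55_P2308239 of *Ccr9* with 1.12. The lone *Mir195* array is then assumed to vary like the EMPTY arrays. Without *Mir195* replicate 2 the values were 0.82 and 0.88, and neither was called. Over 13 alternatives 8 of the 19 probes kept their direction, those of *Itgb7* and *Cxcr4*, both probes with a value of 1 or more, A_55_P2064043 and A_55_P2166486 of *Cd44*, A_51_P466378 of *Itgal* and A_55_P1976212 of *Selplg*. Among the 13, the filters and replicate blocks could not change a direction.

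**Figure D4:**
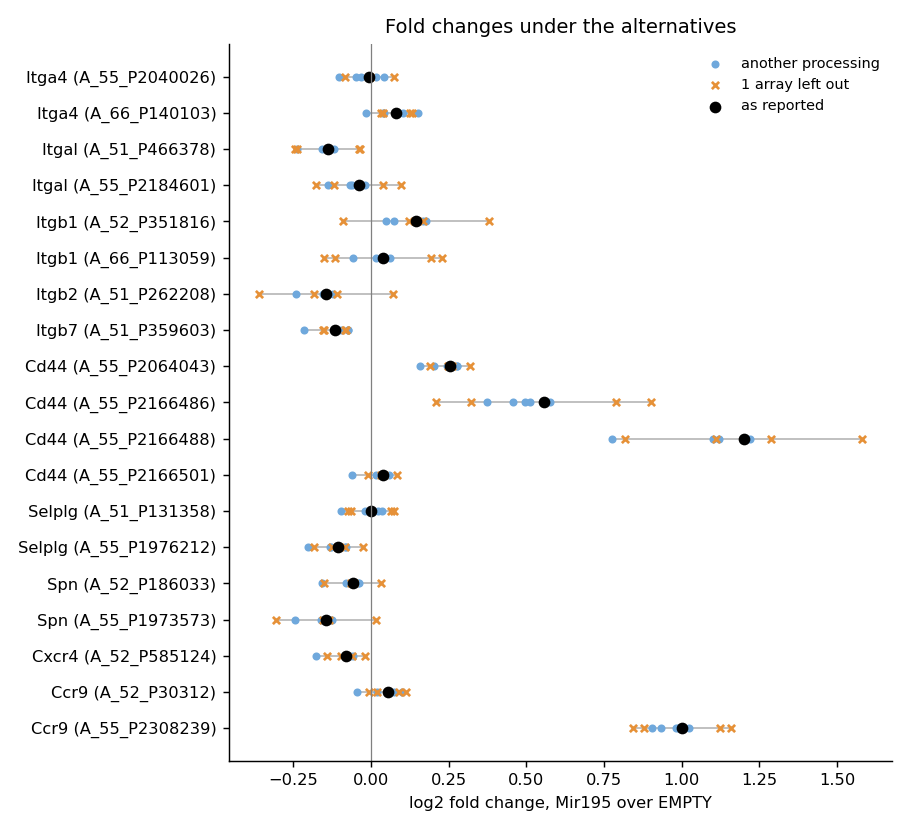
Log2 fold change of each receptor probe (horizontal axis) as reported (black), under other processing (blue) and with 1 array left out (orange crosses). The points of 8 probes stay on the same side of 0. Those of *Itgb1*, *Itgb2* and *Spn* cross it when an array is left out. So do those of A_55_P2040026 of *Itga4*, A_55_P2184601 of *Itgal*, A_51_P131358 of *Selplg*, A_55_P2166501 of *Cd44* and A_52_P30312 of *Ccr9*.

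The genes that work with these receptors were grouped in 7 lists, each gene by its probe of highest mean signal, and limma called 0 genes of any list. Over all 19042 genes tested, 9944 were higher and 9098 lower with *Mir195*, the median log2 fold change was 0.01, and the arrays did not overlap for 37.8%. Of the other integrin subunits, 15 were tested, 6 of them higher and 9 lower, with a median of -0.10, which turned to 0.05 without *Mir195* replicate 1 and to 0.0052 after normexp. The genes named from each list have the widest differences in each direction among those well above background on all 4 arrays and without overlap. Among them, *Itgb3*, *Itga10*, *Cx3cr1* and *Nf2* have a further tested probe, which is not given here. *Itgb3*, which binds fibrinogen and vitronectin with its alpha chain, was lower on both *Mir195* arrays, at 3.39 and 3.14 with EMPTY against 2.96 and 2.82 (log2 fold change -0.38, standard error 0.15). The collagen-binding *Itga10* was higher, at -3.31 and -3.21 against -2.71 and -2.59 (0.61, 0.12).

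Of the genes that activate integrins or link them to actin, 11 of 27 were higher and 16 lower, with a median of -0.05. *Zyx*, a focal adhesion protein, had -0.13 (standard error 0.12). *Dab2*, an endocytic adaptor, measured -3.95 and -3.66 with EMPTY and -3.49 and -2.68 with *Mir195*. *Mir195* replicate 2 stood well above the other 3 arrays, and the log2 fold change of 0.72 (0.30) was 0.32 without it and 1.13 without *Mir195* replicate 1. Among selectins and the enzymes that decorate PSGL-1, 4 of 13 were higher and 9 lower, with a median of -0.07. *Fut4*, a fucosyltransferase of selectin ligands, measured -2.10 and -1.96 with EMPTY and -2.74 and -2.75 with *Mir195*. Its replicates lay closer together than its groups, and its log2 fold change was -0.72 (0.12), or -0.39 with the normexp background correction. *Selp*, for P-selectin, had 0.19 (0.12).

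The other chemokine and lipid receptors of homing were lower in 12 of 15 genes, with a median of -0.22. This median was 0.01 without EMPTY replicate 1, -0.43 without EMPTY replicate 2, -0.10 without *Mir195* replicate 1 and -0.10 with no filter on dim probes, so that its direction rested on EMPTY replicate 1. *Cxcr5*, the receptor that draws lymphocytes to follicles, measured 2.89 and 2.60 with EMPTY and 1.97 and 2.04 with *Mir195*, a log2 fold change of -0.74 (standard error 0.15). *Cx3cr1*, the fractalkine receptor, measured 0.76 and 0.80 with EMPTY and 1.48 and 1.08 with *Mir195* (0.50, 0.17). Of the 15, 5 were lower and 1 higher without overlap. Over all 19042 genes tested, 2799 were lower and 4391 higher without overlap. The transcript probes of *Cxcr4* and *Ccr9* lay at -0.08 and 0.05. The 13 T lineage markers were lower with *Mir195* in 12 cases, with summed levels of 57.9 and 63.3 with EMPTY and 57.6 and 53.8 with *Mir195*. *Lck* alone, with a log2 fold change of -0.03, made up most of these sums, at 36.5 and 43.1 with EMPTY and 40 and 37.9 with *Mir195*. The sum of the NK and innate lymphoid markers was highest on EMPTY replicate 1, as given above. The part of these cells in the receptor values was not tested.

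The partners of CD44 and CD43 were higher in 4 and lower in 8 of 12 genes, with a median of -0.05, which was 0.01 without EMPTY replicate 2 and 0.02 after normexp. *Cd74*, the invariant chain, which forms a receptor complex with CD44, was lower by 0.45 (standard error 0.15), from 5.08 and 4.82 with EMPTY to 4.42 and 4.59 with *Mir195*. *Nf2*, whose product merlin binds the tail of CD44, was higher by 0.19 (0.14). The splicing factor *Esrp1*, which favours the variant exons of *Cd44*, had a log2 fold change of -0.11 on the probe that was tested, and the probe of *Esrp2* was well above background on 1 array. Both were named after their values were seen. Of the other adhesion molecules of leukocytes, 9 of 22 were higher and 13 lower, with a median of -0.08, or 0.05 after normexp. *Thy1* had -0.59 (0.15) and *Jam3*, of the junctional adhesion molecules, 0.46 (0.17).

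Of the ligands, 9 of 12 were higher in the mean, with a median of 0.08. This median was -0.09 without *Mir195* replicate 2, -0.02 after scaling by the median and 0.18 after normexp, so that its direction depended on 1 array and on the scaling. *Cxcl12* measured 0.40 and 0.48 with EMPTY and 0.34 and 1.35 with *Mir195*, and *Fn1*, for fibronectin, measured 1.3 and 1.29 with EMPTY and 1.11 and 2.15 with *Mir195*. In both, *Mir195* replicate 2 alone was high, as in the sum of stroma markers, a list that holds both genes. Their log2 fold changes were 0.40 (0.35) and 0.33 (0.36), and without *Mir195* replicate 2 they were -0.10 and -0.18. The dimmer *Cxcl12* probe measured -0.83 and -1.01 with EMPTY and -1.37 and -0.17 with *Mir195*, a log2 fold change of 0.15. *Icam1* had 0.03 (0.16) and *Ccl25* 0.12 (0.12). *Madcam1* had -0.15 (0.13) on its brighter probe, 0.16 on that probe after normexp, and 0.55 on its other one. Of the 2 *Vcam1* probes, 1 was well above background on 1 array of each virus and the other on none.

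**Figure D5:**
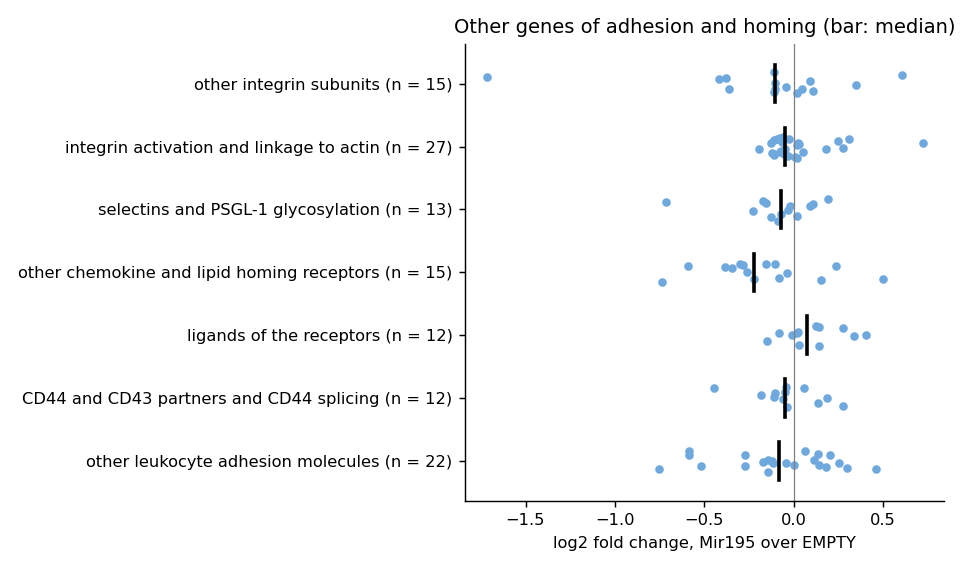
Log2 fold change (horizontal axis, *Mir195* over EMPTY) of each tested gene of the 7 lists, with the median as a black bar. The medians lie between -0.22 for the other chemokine and lipid receptors and 0.08 for the ligands, both of which turned sign with 1 array left out (0.01 without EMPTY replicate 1 and -0.09 without *Mir195* replicate 2), and the point at the far left is *Itga2b*, which was well above background on 3 arrays.

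*Ebf1* was measured at 2.01 and 1.89 with EMPTY and 1.85 and 2.03 with *Mir195*, a log2 fold change of -0.01 (standard error 0.13). As no wild-type array was used, this signal has no reference for the knockout.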

How the data were processed

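The authors labelled RNA with a single dye for 4 Agilent mouse arrays and deposited, per spot, a background-subtracted intensity (Agilent Feature Extraction 11.5.1.1 per the submitters' processing notes) and flags, other values that mark spots as above background or outliers. The log2 table that the authors deposited, scaled by them to the 75th percentile, correlated with the values computed here at r = 0.998 per array.

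Here, spots of a probe were averaged as log2 and the 75th percentile of the array was subtracted. Samples were grouped by title. Probes above background throughout a virus's arrays were fitted with lmFit and eBayes of limma 3.58.1 (R 4.3.3, data.table version 1.17.8), two-sided with Benjamini-Hochberg adjustment at 0.05, after a check on simulated data. The number of arrays limits the precision.

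The genes and lists were chosen with earlier results of these data known. Named were all probes of the 10 genes, from each list the widest difference in each direction without overlap among genes above background on all 4 arrays, *Ebf1* and 6 ligands. Alternatives were other background corrections, scalings, filters and eBayes settings, the authors' table, the replicate block, the t-test of the methods and each array left out. The values of 1 marker and the sequence of 1 probe are not reported here.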

Additional observations from a re-analysis of the deposited data

How the results depend on the processing

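Limma's 0 calls over all probes became 3 when arrays were scaled by the median and 5 with the replicate number as a block, and ranged from 0 to 904 with 1 array left out. The replicate numbers come from the labels, and the differences between replicates of the 2 viruses correlated at -0.10, so they were not taken as pairs. The crossed pairing, added after seeing the data, gave 0 calls. The methods' t-test gave 1134 probes at its threshold and 0 after Benjamini-Hochberg adjustment. The receptor probes called ranged from 0 to 2 with 1 array left out, and the genes called in the lists from 0 to 4, which without *Mir195* replicate 1 were *Cxcl12*, *Dab2*, *Fn1* and *Itga2b* (-2.76, and -0.06 in all arrays after normexp), the last named after its values were seen. Under scaling by the median 5 receptor probes were higher, against 9, and the median log2 fold change of all probes was -0.08. Of 247 values of single receptor probes under the alternatives, 11 moved by more than the spread between replicates, 9 of them under scaling by the median. The 247 include the filters and replicate blocks. These could not move a value, since all receptor probes passed each filter and the arrays were balanced between the viruses. Signals near the local background of 38 to 39 limit the 2 dim *Cd44* probes, and 2 arrays per virus limit every other value.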
